A study of Bos taurus with 12 samples.

Results

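Exonic m6A peaks of long genomic span are peaks that the authors annotated as exonic and whose span on the genome exceeds 1000 bp. They were chosen by annotation and span alone, in the peak list of MII oocytes, the peak list of GV oocytes and the table of differential peaks, and were joined to input expression by gene identifier. The 3 tables held 15863 such peaks of 45202 in all. The MII list held 7877 of 22298 peaks, in 4878 genes. The GV list held 4509 of 14222 peaks, in 3055 genes. The differential table held 3477 of 8682 peaks, in 2494 genes. All of these peaks lay in genes annotated as protein coding.

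N6-methyladenosine (m6A) is laid down on nascent RNA by a complex around METTL3 and METTL14, removed by FTO and ALKBH5, and read by proteins of the YTH and IGF2BP families. In mammalian cells the exon junction complex, which splicing leaves close to exon joins, keeps m6A away from those joins, so that the mark is known mainly from long internal exons and the last exon. In this assay, RNA fragments bound by an m6A antibody are sequenced beside untreated input, and a peak called on spliced RNA can run over several exons. Its genomic span then takes in the introns between them, so span is not a length of methylated RNA. The tables used here have no column of exon blocks, and the length of RNA under these peaks was not analysed here.

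The samples were bovine oocytes at the MII stage, arrested at metaphase of the second meiotic division, and at the GV stage, with an intact germinal vesicle and arrested in prophase of the first division. Both were cultured in vitro, and the question was how m6A and the transcriptome differ between these stages of maturation. Each stage had 3 immunoprecipitated and 3 input libraries, 12 in all, from poly(A) RNA. The labels give no breed, age, number of oocytes or animal of origin, nor whether libraries of a stage came from separate cultures, and p-values here cover the spread of libraries only, which may be technical.

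Expression was given as FPKM (fragments per kilobase of transcript, scaled to library depth) for 16675 genes in the 6 input libraries, while each stage had 1 peak list for its 3 pairs of libraries, so peaks had no replicate spread. The depth of the libraries was not given. Spearman's correlation across genes was 0.983 between MII input libraries, 0.986 to 0.987 between GV input libraries and 0.912 to 0.918 across stages. MII libraries listed 1282 to 1727 genes at 0 and GV libraries 3722 to 3765. All 12 oocyte markers were above 1 FPKM on average, with summed levels of 4381 to 4577 FPKM in MII libraries and 3950 to 3995 FPKM in GV libraries. Of 17 matched cumulus and granulosa cell markers, 7 averaged under 1 FPKM, and the summed level of the list was 252.1 to 259.2 FPKM in MII libraries and 251.7 to 262.5 FPKM in GV libraries, of which STAR alone held 167.2 and 149.1 FPKM on average. Of the 17, 9 had a higher mean in MII and 8 in GV libraries. Single markers differed between stages where the sums did not. VIM averaged 0.43 FPKM in MII and 6.31 FPKM in GV libraries, PTGS2 5.98 and 15.3 FPKM, and HAS2 21.5 and 34.3 FPKM. In the other direction, CLU averaged 6.48 and 2.25 FPKM and GREM1 5.73 and 2.39 FPKM. FSHR and INHA were listed at 0 in all MII libraries, and HSD3B1 and PTX3 in all GV libraries. Their levels in the other stage were also low. In GV libraries FSHR was at 0.14, 0.04 and 0.04 FPKM, and INHA at 1.41, 0 and 0 FPKM. In MII libraries HSD3B1 was at 0.59, 1.13 and 0.43 FPKM, and PTX3 at 0, 0.76 and 0 FPKM. The part of such cells in the results was not tested.

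Long-span peaks were the larger class of exonic peaks in MII oocytes and slightly the smaller class in GV oocytes. They made up 57.3% of 13738 exonic peaks in the MII list (95% Clopper-Pearson interval 56.5% to 58.2%), against 48.3% of 9333 in the GV list (47.3% to 49.3%). In the differential table they were 62.5% of 5562. These intervals cover counting error only and take peaks as independent, although many peaks share a gene. The median span was 5.25 kb in MII oocytes and 4.83 kb in GV oocytes, and the quartiles were 2454 and 12600 bp in MII oocytes and 2329 and 11214 bp in GV oocytes. The distributions of both stages overlapped over most of their range, and the MII quartiles were the longer.

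**Figure D1:**
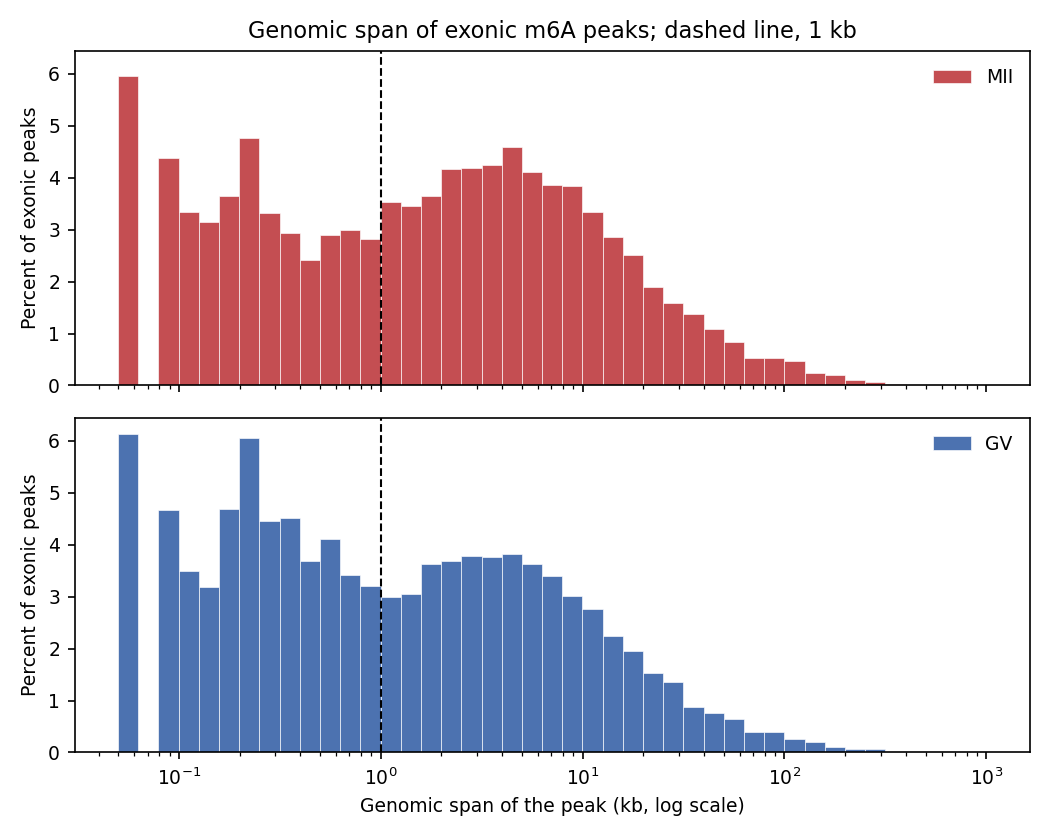
Genomic span of exonic m6A peaks (kb, log scale) in MII oocytes (top) and GV oocytes (bottom), as percent of that stage's exonic peaks in each bin. The dashed line marks the 1000 bp threshold. In both stages a group of short peaks lies left of it and a broad group right of it, and the right-hand group holds 57.3% of MII and 48.3% of GV exonic peaks.

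The threshold does not fall in a gap of this distribution. Just inside it in the MII list lay peaks of 1001 bp in PLXNA3 and IPO4, with log2 enrichments over input of 3.15 and 2.51, and just outside it peaks of 1000 bp in WRNIP1 and 999 bp in ATRN, with 0.75 and 1.07. In the GV list the nearest members were peaks of 1003 bp in HSDL1 (3.70) and VDAC3 (0.56), and the nearest others those of 1000 bp in ARHGEF38 (4.56) and 999 bp in TRIM41 (2.56). In the authors' deposited table of differential peaks the nearest were CSE1L at 1001 bp and DONSON at 1002 bp inside, with log2 changes of 1.01 and 3.16, and CDK17 at 998 bp and PRPF40B at 1000 bp outside, with 2.75 and 2.64.

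The peaks lay in large genes. Counted once per peak, the median genomic span of the gene was 62.9 kb under long-span MII peaks and 31.7 kb under shorter exonic MII peaks. The medians for GV peaks were 65.2 kb and 35.6 kb. A gene with several peaks counts several times in these medians. Counted once per gene, genes with a long-span peak and an expression row had medians of 47.2 kb (MII) and 52.7 kb (GV). The median mean input level over both stages, again per peak, was 16.3 FPKM under long-span MII peaks and 10.4 FPKM under shorter ones. For GV peaks it was 19.0 and 11.9 FPKM. Span can only be long where a gene is long enough to hold it, and detection depends on expression, and their part in the difference between the 2 classes was not tested. Genes of 19 long-span MII peaks and 5 long-span GV peaks had no row in the expression table.

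A typical long-span peak covered a minor part of its gene, and a few covered nearly all of it. The median share of the gene's genomic span was 10.7% in MII oocytes and 9.70% in GV oocytes. More than 50% of the gene was covered by 825 MII and 401 GV peaks, and more than 90% by 152 MII and 83 GV peaks. Peak midpoints lay, as a median, at 0.614 of the way through the gene in MII oocytes and at 0.656 in GV oocytes, where 0 is the gene start and 1 its end. For shorter exonic peaks these medians were 0.686 and 0.728, so midpoints of long-span peaks lay nearer the middle of the gene in both stages. A peak that covers most of its gene must have its midpoint near the middle. The part of this in the difference was not tested. A whole further gene lay within the span of 112 MII and 51 GV peaks.

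The longest span in the MII list belonged to FHIT, a gene for a hydrolase of diadenosine triphosphate, whose peak at chr22:40819274-41605063 ran over 786 kb and 100% of the gene with a log2 enrichment of 1.61. The sources used here do not give the genome build. The names that follow are of peaks with an FDR under 0.05, a gene symbol and a mean input of at least 1 FPKM. Another 2 exonic MII peaks, between 501104 and 630888 bp, lay outside these limits. Next among MII peaks came those of the splicing factor gene RSRC1 at 432 kb and the exocyst gene EXOC4 at 346 kb. The glycosyltransferase gene GALNT13 at 338 kb and the mineralocorticoid receptor gene NR3C2 at 336 kb followed. The longest in the GV list was that of KCTD16, an auxiliary subunit of GABA-B receptors, at 309 kb. Within the same limits, those of ERC2 at 286 kb and NCKAP5 at 281 kb came next. The sodium-calcium exchanger gene SLC8A1 at 271 kb and the zinc receptor gene GPR39 at 261 kb followed. No gene stood in both of these groups of 5. FHIT input was 87.7, 91.0 and 92.4 FPKM in MII libraries, against 72.9, 84.9 and 65.5 FPKM in GV libraries, with every MII library above every GV library. Its difference of 0.28 on the log2(FPKM + 1) scale had an adjusted p of 0.0236 in limma and from 0.0525 to 0.0697 under 6 alternatives, among them 0.0642 without GV library 1, 0.0569 without GV library 3, 0.0651 without MII library 2 and 0.0697 without MII library 3.

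Enrichment was lower in the MII list. The median log2 enrichment of immunoprecipitate over input, the authors' own value for each peak, was 1.70 over MII long-span peaks (quartiles 1.21 and 2.39) and 2.56 over GV long-span peaks (quartiles 1.71 and 3.32). Shorter exonic peaks had medians of 1.42 in MII and 2.56 in GV oocytes, so long-span peaks had the higher median in the MII list. In the GV list both medians fell on the same repeated value, and the quartiles of shorter exonic peaks were 1.59 and 3.14. An FDR under 0.05 was reached by 89.6% of long-span MII peaks, beside 82.6% of all MII peaks, and by 83.8% of long-span GV peaks, beside 75.9% of all GV peaks. With 1 list a stage and no values for single immunoprecipitated libraries, none of these differences between stages could be set against replicate error.

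Within the MII list, enrichment was higher in the longer classes of span. The median was 1.44 for spans of 1000 to 2000 bp, 1.57 for 2000 to 5000 bp, 1.77 for 5000 to 10000 bp, 1.89 for 10000 to 20000 bp, 2.00 for 20000 to 50000 bp and 2.09 above 50000 bp. In the GV list the medians over the same classes were 2.51, 2.55, 2.56, 2.82, 2.76 and 2.94. The first class of long spans stood below the last class of short ones, 500 to 1000 bp, whose median was 1.58 in MII and 2.82 in GV oocytes. Midpoints lay nearer the gene start in the longer classes of the MII list, with a median of 0.664 at 1000 to 2000 bp and 0.467 above 50000 bp. Span and midpoint are not independent, since a peak over most of its gene must have its midpoint near the middle. Counted once per peak, median input of the genes under MII peaks was 16.3 FPKM at 1000 to 2000 bp. It was 14.8 FPKM at 2000 to 5000 bp and 18.9 FPKM above 50000 bp. The part of position and level in the enrichment was not tested.

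Many peaks shared an identical enrichment. In the MII list 171 long-span peaks had a fold of exactly 6.65 and 128 a fold of 7.39, and in the GV list 205 had 5.89 and 144 had 6.48. The medians of long-span and of shorter exonic GV peaks are both one of these repeated values, at log2 2.56, so their equality is a tie. Long-span GV peaks with this value differed in FDR, as in KDM2B (0.203) and SMC1A (0.0214). Tied peaks have no order among themselves.

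The highest enrichments, among peaks within the same limits of FDR, symbol and input, differed in gene between the lists. In the MII list they were led by a peak of 17.5 kb in the bromodomain gene BAZ2B at chr2:36915963-36933459 with a log2 enrichment of 5.47, then ERC2 at 5.32, the phospholipid flippase gene ATP11B at 5.29, and the cilia gene CEP290 and the U3 ribonucleoprotein gene RRP9 at 5.21 each. In the GV list they were led by a peak of 13.7 kb in the histone H2A deubiquitinase gene MYSM1 at chr3:87355470-87369197 with 7.77, then the zinc finger gene ZNF445 at 7.33, the RNA-binding gene ZC3H12C at 7.29, PCNX1 at 6.88, the tRNA synthetase gene EPRS1 at 6.86 and the histone methyltransferase gene ASH1L at 6.83. In ERC2 the MII peak with 5.32 lay at chr22:44918026-45133618 and a further long-span MII peak, with 2.38, at chr22:44579376-44852312. Each overlapped a long-span GV peak of ERC2, the first one with 3.24 at chr22:45016240-45067084 and the further one with 4.99 at chr22:44579436-44865734. At the further one the differential peak had a change of -1.54 in the authors' deposited table.

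Most GV long-span peaks met an MII peak, while fewer MII long-span peaks met a GV peak. Of MII long-span peaks, 42.1% overlapped any GV peak on the same strand by at least 1 bp, and of GV long-span peaks 77.8% overlapped any MII peak. The lists differ in length, so each share is of its own list. Overlap with a long-span exonic peak of the other stage held for 32.3% of MII and 59.4% of GV long-span peaks. A reciprocal overlap of 50% of both spans left 1467 pairs, which were 18.6% of MII and 32.5% of GV long-span peaks. For shorter exonic peaks, overlap with any peak of the other stage was 42.4% of MII and 56.5% of GV peaks.

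Overlapping peaks seldom shared their edges. Of 2827 pairs of an MII and a GV long-span peak, 392 had the same start, 358 the same end and 62 both. Starts differed by 30 bp, give or take 1 bp, in 311 pairs and by 45 bp in 0, so that edges lay on steps of about 30 bp. The MII peak was the longer in 1764 pairs, the shorter in 977 and as long in 86, and the median ratio of MII to GV span was 1.10. Over the 1467 reciprocal pairs, the median enrichment was 1.96 in MII and 2.76 in GV oocytes, the median MII minus GV difference was -0.71, and the MII value was the higher in 24.6% of pairs.

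The differential table lists only peaks with a p under 0.05, so its shares describe listed peaks and not all peaks. In the authors' deposited table, FDRs under 0.05 were given to 3292 of 3477 long-span peaks, or 94.7%, beside 94.0% of all 8682 listed peaks, so the call itself says nothing about these peaks. The direction differed more: 2459 long-span peaks were higher and 833 lower in MII oocytes in the authors' deposited table, so that 74.7% of the calls were higher (73.2% to 76.2%). Over all listed peaks, 63.0% were called higher and 31.0% called lower, which makes 67.0% of their calls higher. Among shorter exonic peaks 1008 were called higher and 905 lower, or 52.7% higher (50.4% to 55.0%).

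The listed peaks were also split by the stage lists they overlapped. Presence in 1 list only fixes the direction by itself, so those counts are a description. In the authors' deposited table, 1498 listed long-span peaks overlapped a peak of the MII list and none of the GV list, and all 1498 were higher in MII oocytes. A further 82 overlapped a peak of the GV list only, and all 82 were lower, as were all 353 such shorter exonic peaks, while all 931 shorter exonic peaks of the MII list only were higher. Among the 1897 that overlapped a peak of both lists, 1016 were called higher and 757 lower in the authors' deposited table, or 57.3% higher (55.0% to 59.6%), and for shorter exonic peaks in both lists the counts were 149 and 583, or 20.4% higher. When the differential peak also matched a long-span peak of each list by a reciprocal overlap of 50%, 319 were called higher and 437 lower in the authors' deposited table, or 42.2% higher (38.6% to 45.8%). Where it overlapped both lists without such a match, 697 were called higher and 320 lower, or 68.5% higher. This match was also made on the peaks' own presence and is a description.

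The change in the differential table is also not the plain difference of the 2 enrichments. Over the 817 listed peaks matched in all 3 tables, the median enrichment was 2.05 in MII and 2.84 in GV oocytes and the median difference -0.83, while the median log2 change in the authors' deposited table was -0.43. The signs were both negative for 460 peaks and both positive for 235. The deposited change was positive where the difference was negative for 109 peaks, and negative where the difference was positive for 12. All of these values come from the same libraries.

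**Figure D2:**
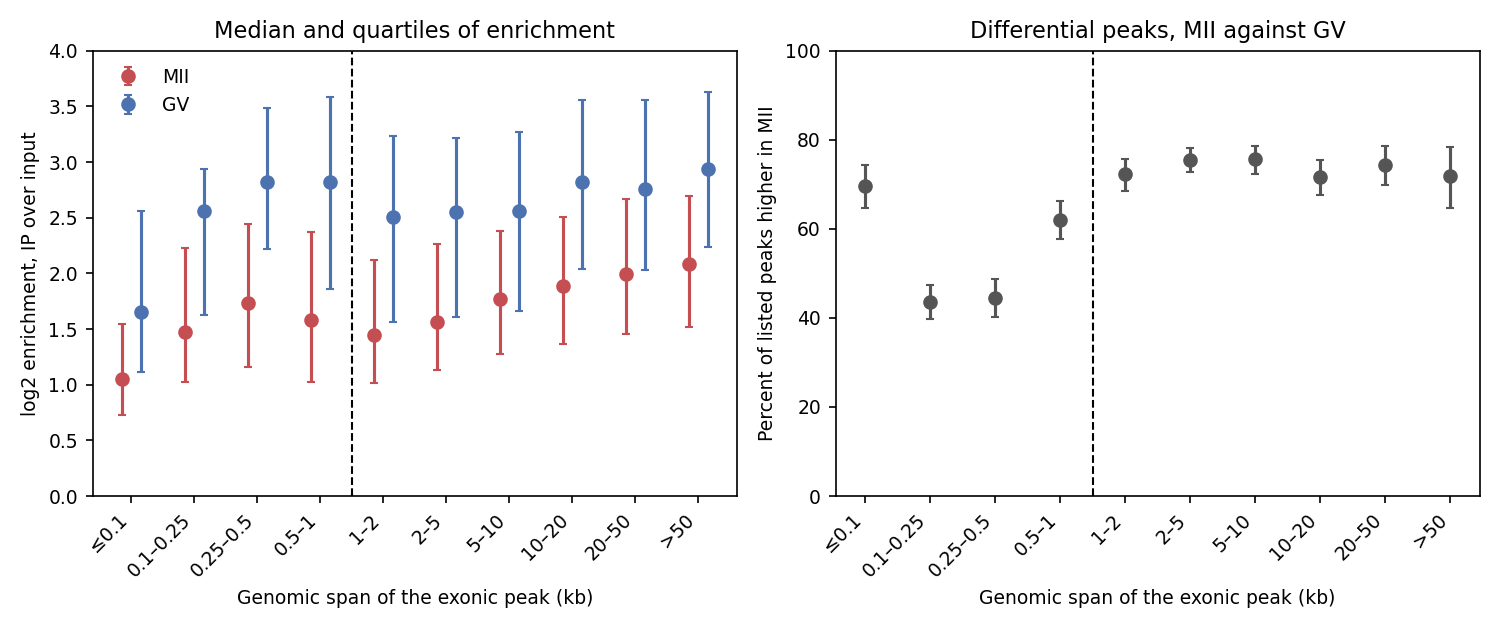
Exonic peaks by class of genomic span (kb), with the 1000 bp threshold as a dashed line. Left, median and quartiles of log2 enrichment over input, MII left of GV in each class; MII medians lie below GV medians in every class. Right, percent of listed differential exonic peaks that were higher in MII oocytes, with 95% Clopper-Pearson intervals; the share is 69.6% up to 100 bp, 43.6% at 100 to 250 bp, 44.5% at 250 to 500 bp, 62.0% at 500 to 1000 bp, and between 71.7% and 75.6% in every class above the threshold.

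The share of listed differential peaks that were higher in MII oocytes had no steady relation to span. Below the threshold it was 69.6% up to 100 bp (64.6% to 74.3%), 43.6% at 100 to 250 bp, 44.5% at 250 to 500 bp and 62.0% at 500 to 1000 bp in the authors' deposited table. Above it, in the authors' deposited table it was 72.2% at 1000 to 2000 bp, 75.5% at 2000 to 5000 bp, 75.6% at 5000 to 10000 bp, 71.7% at 10000 to 20000 bp, 74.4% at 20000 to 50000 bp and 71.9% above 50000 bp, with overlapping intervals. The strand of the gene moved with it: 80.6% of calls on the plus strand were higher (78.7% to 82.4%), against 67.4% on the minus strand (64.9% to 69.8%). For shorter exonic peaks the gap between strands was wider, at 66.5% and 40.0%. In the peak lists 57.6% of MII and 50.8% of GV long-span peaks lay on the plus strand, and for shorter exonic peaks the shares were 57.1% and 50.8%. The part of strand in the count of higher peaks was not tested.

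Within the limits of FDR, symbol and input used above, the differential peaks with the highest positive changes overlapped the MII list only. They were, in the authors' deposited table, a peak of 2.26 kb in the ubiquitin-binding gene ANKRD13B at chr19:20859923-20862182 with a log2 change of 6.71, one of 7.70 kb in SPIRE2 at chr18:14669730-14677433 with 6.50, one of 1.32 kb in the intraflagellar transport gene TTC21B with 6.23, one of 4.32 kb in PICK1 with 5.61 and one of 5.81 kb in the tRNA synthetase gene FARSB with 5.52. SPIRE2 encodes an actin nucleator that mouse oocytes use in asymmetric division. Input of ANKRD13B was 7.90, 9.65 and 9.21 FPKM in MII libraries, against 9.47, 8.94 and 7.97 FPKM in GV libraries, which overlapped, with a log2 difference of 0.02 (SE 0.10, adjusted p = 0.896 in limma).

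Among the 10 most negative changes within the same limits were peaks that overlapped the GV list only. A further one of these, in ARHGAP24 (-3.41 in the authors' deposited table), overlapped both lists. In the authors' deposited table the peaks of the GV list only included one of 8.30 kb in CACUL1 with a log2 change of -5.84, one of 2.11 kb in the transcriptional repressor gene ZEB1 at chr13:33774025-33776138 with -5.53, one of 2.67 kb in the RNA polymerase III factor gene BDP1 with -4.41 and one of 5.66 kb in PTGFRN with -3.81. A peak of 1.12 kb in DNMT3A, a de novo DNA methyltransferase, had -3.54 in the authors' deposited table, and the GV list held an enrichment of 4.56 over the same stretch. Input of ZEB1 was 6.19, 6.46 and 5.92 FPKM in MII libraries, against 6.79, 6.89 and 7.95 FPKM in GV libraries. The ZEB1 libraries did not overlap, but the difference of -0.19 had an adjusted p of 0.125 in limma, and 0.0480 under median scaling.

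Several very large genes carried many long-span peaks. In the MII list 3103 genes had 1 such peak, 1082 had 2 and 693 had 3 or more, and in the GV list the counts were 2105, 627 and 323. SYNE2, which encodes nesprin-2 of the nuclear envelope, had the most in both lists, with 23 MII and 16 GV peaks over a gene of 270 kb. NEB, which encodes the muscle filament protein nebulin, followed with 18 MII and 9 GV peaks over 217 kb. DNAH11, an axonemal dynein, had 10 MII and 4 GV peaks, and the deubiquitinase gene USP34 10 and 2. The order was turned for CENPE, a kinesin of the kinetochore, with 2 MII and 8 GV peaks, and for PDE4DIP, a centrosome and Golgi protein, with 3 and 7. CEP350, a centrosome protein, had 7 in each list.

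Most genes with 2 or more listed long-span peaks had changes in 1 direction only, and the others had both. Of 10 differential peaks in SYNE2, 8 were positive and 2 negative in the authors' deposited table, from -0.89 to 1.57, of which 1 positive change (0.51, FDR 0.0794) was not called. Of 9 in NEB, 8 were positive and 1 negative in the authors' deposited table, from -0.65 to 3.23. All 7 in SPTAN1, the gene of non-erythroid alpha spectrin, were positive in the authors' deposited table (0.95 to 2.14), as were all 6 in the Rac exchange factor gene DOCK5 (1.20 to 2.60) and all 5 in DNAH11 (0.47 to 2.45). KMT2C, a histone H3 lysine methyltransferase, had 4 positive and 2 negative, CENPE 1 and 2, and CEP350 1 and 3 in the authors' deposited table. Of the 685 genes with 2 or more listed long-span peaks, 392 had only positive changes, 61 only negative ones and 232 both.

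**Figure D3:**
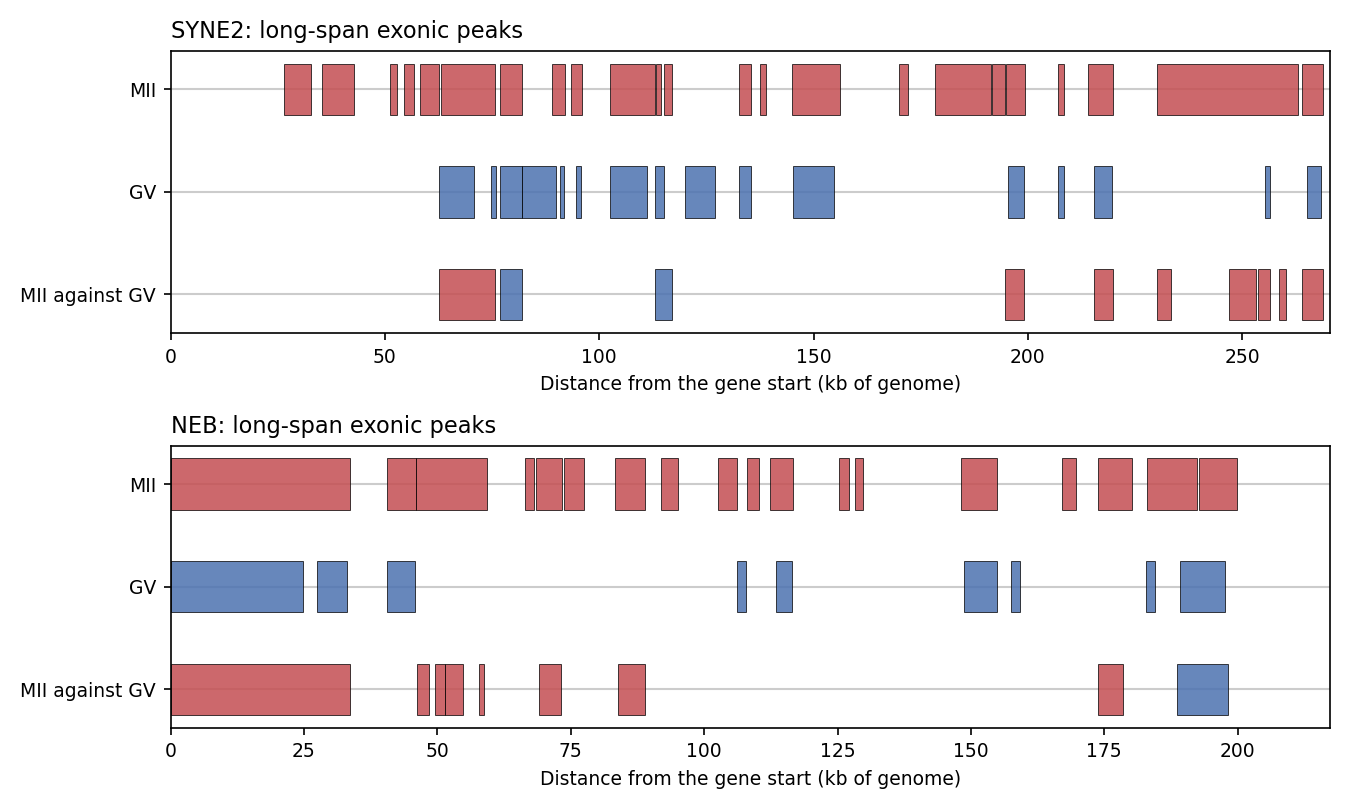
Long-span exonic peaks along SYNE2 (top) and NEB (bottom), as kb of genome from the gene start in the direction of the gene. Rows are the MII list, the GV list and the differential table, where red boxes are higher and blue boxes lower in MII oocytes. SYNE2 has 23 MII, 16 GV and 10 differential peaks, and its first peak lies 26.5 kb from the gene start in the MII row and 62.6 kb in the GV row; NEB has 18, 9 and 9, and in both stages a peak begins at the gene start.

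In SYNE2 the long-span MII peaks began 26.5 kb from the gene start, long-span GV peaks 62.6 kb from it. Between 230.2 and 263.1 kb a single MII long-span peak with a log2 enrichment of 1.72 faced 1 GV long-span peak of 1.06 kb with 0.77, and 4 differential peaks from 1.14 to 1.57 lay there in the authors' deposited table. At 76.8 kb, where both lists had a peak (1.97 in MII and 3.41 in GV oocytes), the authors' deposited table gave a change of -0.89. At 215 kb the enrichment was 1.76 in the MII list and 2.94 in the GV list, while the authors' deposited table gave a positive change of 1.56. That GV peak had an FDR of 0.0741 in the GV list. Its enrichment is a repeated value, shared by 108 long-span GV peaks.

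In NEB the first peak began at the gene start in both lists and reached 33.7 kb in MII and 24.8 kb in GV oocytes, with enrichments of 3.49 and 4.02. Between 46.0 and 88.9 kb the MII list had 5 long-span peaks and the GV list none, though 3 of the 6 differential peaks there overlapped shorter GV peaks. Of the 6, 5 had changes of 1.34 to 3.23 at an FDR under 0.05 in the authors' deposited table, and 1 had 0.80 at an FDR of 0.0617. The peak that began 148 kb from the gene start was the strongest of the gene in both lists, at 4.78 in MII and 4.63 in GV oocytes, and no long-span differential peak was listed there. Input of NEB was 15.5, 13.5 and 14.5 FPKM in MII libraries, against 22.5, 23.4 and 24.6 FPKM in GV libraries, and fell by 0.66 on the log2 scale (SE 0.07, adjusted p = 0.000169 in limma). Input of SYNE2 was 41.3, 39.9 and 39.4 FPKM in MII libraries, against 47.9, 49.9 and 48.4 FPKM in GV libraries, and fell by 0.27 (SE 0.05, adjusted p = 0.00137 in limma). In both genes the MII libraries lay below all GV libraries while most differential peaks were higher.

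The same held for SPTAN1, at 157.6, 162.2 and 155.1 FPKM in MII libraries, against 188.5, 190.8 and 188.6 FPKM in GV libraries (log2 difference -0.26, SE 0.04, adjusted p = 0.000505 in limma). DNAH11 was at 21.8, 21.7 and 22.4 FPKM in MII libraries, against 31.9, 32.1 and 31.7 FPKM in GV libraries (-0.52, SE 0.05, adjusted p = 8.66e-05 in limma). CENPE, with more peaks in the GV list, was also lower, at 29.2, 25.8 and 25.5 FPKM in MII libraries, against 36.9, 37.3 and 37.6 FPKM in GV libraries (-0.46, SE 0.06, adjusted p = 0.000523 in limma). For none of these 3 genes did the libraries of the stages overlap.

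Of 11 writer genes, which lay down m6A, 2 had a long-span peak in the MII list and 4 in the GV list, or 18.2% and 36.4%, beside 38.7% and 25.3% of all genes that average 1 FPKM or more. These 2 shares, and the 74.7% of all long-span calls that were higher in MII oocytes, stand beside the counts of each list that follows. The shares of the lists take all matched genes, also those that average under 1 FPKM. The 3 long-span writer peaks called in the authors' deposited table were all lower. The values there were -0.51 for VIRMA, the scaffold of the complex, -0.47 for the zinc finger subunit ZC3H13 and -1.03 for the adaptor RBM15B. ZC3H13 had a peak of 10.1 kb at chr12:16045447-16055518 with an enrichment of 4.22 in the MII list and one of nearly the same span with the same end and 5.51 in the GV list. Of the erasers, FTO alone had a long-span peak, of 59.9 kb in the MII list with an enrichment of 1.37, and neither eraser had a long-span peak in the differential table.

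The 15 reader genes had a median gene span of 39.4 kb, beside 20.8 kb over all tested genes. The part of gene size in their shares was not tested. Of these 15, 9 had a long-span peak in the MII list and 8 in the GV list (60.0% and 53.3%, beside 38.7% and 25.3% of all genes). In the authors' deposited table, 6 differential peaks were called higher and 1 lower (85.7% higher, beside 74.7% of all long-span calls, from 7 peaks). The lower one lay in YTHDF3 (-1.20), and the YTHDF3 peak nearby had an enrichment of 3.15 in the MII list and 6.12 in the GV list over 11.4 and 11.9 kb. YTHDF2, a reader needed for the loss of maternal transcripts in mouse oocytes, had a peak over 78.1% of its gene in MII and 78.9% in GV oocytes, with 1.5 and 3.52, and its change of -1.0 had an FDR of 0.079 in the authors' deposited table. FXR1, an RNA-binding protein related to FMR1, had 1 MII peak of 65.6 kb over 89.4% of the gene with 2.38 and 2 GV peaks of 6.35 and 3.82 kb with 0.46 and 0.79, and a change of 1.34 in the authors' deposited table. IGF2BP2 had 3 MII peaks, of 136.1, 6.76 and 12.3 kb, and 1 GV peak of 4.30 kb, with changes of 1.09 and 3.00 in the authors' deposited table. Input of YTHDF2 was 6.95, 6.38 and 6.21 FPKM in MII libraries, against 9.16, 9.33 and 7.68 FPKM in GV libraries, which did not overlap (log2 difference -0.37, SE 0.10, adjusted p = 0.0158 in limma). That p was 0.0509 without GV library 1, 0.0556 without GV library 2 and 0.0504 without MII library 3.

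Of 21 genes of the exon junction complex and of nonsense-mediated decay, the pathway that reads that complex on spliced RNA, 11 had a long-span peak in the MII list and 6 in the GV list, or 52.4% and 28.6% beside 38.7% and 25.3%. In the authors' deposited table, calls for 11 of their differential peaks were higher and for 2 lower, or 84.6% higher beside 74.7%. SMG9, a regulator of the kinase SMG1, had 4.71 and EIF4A3, the core helicase of the complex, 4.18 in the authors' deposited table, and both peaks overlapped the MII list only. SMG1 itself had 7 long-span MII peaks and no long-span GV peak. ACIN1, a peripheral component of the complex, had peaks at the same places in both lists, with 2.00 in MII and 4.64 in GV oocytes for the larger, which had a change of -1.59 in the authors' deposited table, while its smaller peak had 0.63. Input of EIF4A3 was 47.2, 47.9 and 45.3 FPKM in MII libraries, against 56.7, 58.5 and 57.4 FPKM in GV libraries, and fell by 0.29 on the log2 scale (SE 0.04, adjusted p = 0.000832 in limma).

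The 60 genes of mRNA decay, poly(A) tails and storage had a median gene span of 43.3 kb, beside 20.8 kb over all tested genes. The part of gene size in their shares was not tested. Of these 60, 39 had a long-span peak in the MII list and 20 in the GV list, or 65.0% and 33.3% beside 38.7% and 25.3%. Of their differential peaks 38 were called higher and 6 lower in the authors' deposited table (86.4% higher beside 74.7%), with a median change of 1.82 beside 1.11 over all listed long-span peaks. CPEB1, which controls cytoplasmic polyadenylation of stored messages, had a peak over 84.3 kb and 76.9% of its gene at chr21:22871139-22955422 with an enrichment of 2.33 in the MII list, no long-span peak in the GV list and a change of 4.16 in the authors' deposited table. Input of CPEB1 was 84.3, 83.3 and 82.1 FPKM in MII libraries, against 68.4, 69.1 and 70.0 FPKM in GV libraries, and rose by 0.26 (SE 0.04, adjusted p = 0.000621 in limma). The deadenylase gene PARN had changes of 4.19 and 0.69, the poly(A) polymerase gene PAPOLA of 3.33 and 2.09, and the exosome nuclease gene EXOSC10 of 3.68, 3.46 and 3.09 in the authors' deposited table. CNOT1, the scaffold of the CCR4-NOT deadenylase, had 2 peaks at 2.75 and 2.31 in the authors' deposited table, with 45.8, 45.2 and 44.9 FPKM in MII input libraries, against 45.5, 45.2 and 46.9 FPKM in GV input libraries. TNRC6A, a partner of Argonaute proteins, had 1 peak lower at -1.48 and 1 higher at 1.39 in the authors' deposited table.

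The 57 genes of meiosis and the cell cycle had a median gene span of 30.6 kb, beside 20.8 kb over all tested genes. The part of gene size in their shares was not tested. Of these 57, 39 had a long-span peak in the MII list and 26 in the GV list, or 68.4% and 45.6% beside 38.7% and 25.3%. Of their differential peaks 27 were called higher and 12 lower in the authors' deposited table, and the share higher, 69.2%, was near the 74.7% of all long-span calls. The kinase gene PLK1 had 3 MII peaks, at 1.16, 2.72 and 1.68 kb, and no long-span GV peak, with changes of 2.36, 2.53 and 2.96 in the authors' deposited table. The checkpoint gene BUB3 had 4.01 and BIRC5, the survivin subunit of the chromosomal passenger complex, 3.27 in the authors' deposited table, each over 1 MII peak with no long-span GV peak. NIPBL, which loads cohesin, had 5 differential peaks in the authors' deposited table, of which 4 were positive (1.35 to 4.34) and 1, of 37.3 kb, was at -0.45. SGO2, a protector of centromeric cohesin, had a peak of 2.22 kb with 2.16 in the MII list and one of 6.67 kb with 6.21 in the GV list, and a change of -1.44 in the authors' deposited table. Input of PLK1 was 95.7, 103.6 and 104.7 FPKM in MII libraries, against 93.5, 89.1 and 91.6 FPKM in GV libraries, without overlap, and its difference of 0.15 had an adjusted p of 0.0288 in limma and from 0.0587 to 0.197 under 7 alternatives, among them 4 that left out 1 library: GV library 2 (0.0947), GV library 3 (0.0692), MII library 2 (0.0771) and MII library 3 (0.0867).

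CCNB1, the cyclin that activates CDK1, had a peak of 5.65 kb over 58.1% of its gene in the MII list with an enrichment of 1.07, no long-span peak in the GV list and none in the differential table. Its input was 759.0, 764.7 and 782.0 FPKM in MII libraries, against 1456, 1478 and 1478 FPKM in GV libraries, and fell by 0.94 on the log2 scale (SE 0.03, adjusted p = 1.52e-06 in limma).

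Of 35 genes of oocyte identity and maternal effect, 15 had a long-span peak in the MII list and 11 in the GV list, or 42.9% and 31.4%, near the 38.7% and 25.3% of all genes. Of their differential peaks 13 were called higher and 4 lower in the authors' deposited table, or 76.5% higher, near the 74.7% of all long-span calls. NLRP5, a maternal effect gene, had a change of 2.01, the zona pellucida gene ZP3 0.77, UHRF1, a partner of the maintenance DNA methyltransferase, 0.57, 1.0 and 1.29, and DNMT3B, a de novo DNA methyltransferase, 2.58, 2.25 and 1.05 in the authors' deposited table. Other NLRP genes went both ways, with NLRP13 at 0.97, NLRP14 at -0.67 and NLRP2 at -0.42 in the authors' deposited table. BMP15, a growth factor of the oocyte, had a differential peak over 91.9% of its gene with -0.79 in the authors' deposited table. Its input was higher, at 413.7, 413.1 and 395.8 FPKM in MII libraries, against 314.0, 326.6 and 330.6 FPKM in GV libraries, which did not overlap (log2 difference 0.33, SE 0.04, adjusted p = 0.000218 in limma).

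Of 76 chromatin modifier gene records, in which CHD2 stands more than once, 70 averaged 1 FPKM or more. Of all 76, 57 had a long-span peak in the MII list and 37 in the GV list. These were 75% and 48.7%, beside 38.7% and 25.3% of all genes. Of their differential peaks 51 were called higher and 24 lower in the authors' deposited table, or 68.0% higher beside 74.7% of all long-span calls. CREBBP, a histone acetyltransferase, had a peak of 29.1 kb with 1.88 in the GV list and a change of -1.87, and SUV39H2, a histone H3 lysine methyltransferase, a GV peak of 16.0 kb with 3.72 and a change of -2.30 in the authors' deposited table. Of 39 microtubule motor and centrosome genes, 32 had one in the MII list and 28 in the GV list (82.1% and 71.8%), with 36 differential peaks called higher and 18 lower in the authors' deposited table (66.7% higher). Median gene spans of these 2 lists were 53.3 and 61.0 kb, beside 20.8 kb over all tested genes. At the other end, 12 of 78 cytosolic ribosomal protein genes, with a median gene span of 3.75 kb, had a long-span peak in the MII list and 2 in the GV list. The part of gene size in these shares was not tested.

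**Figure D4:**
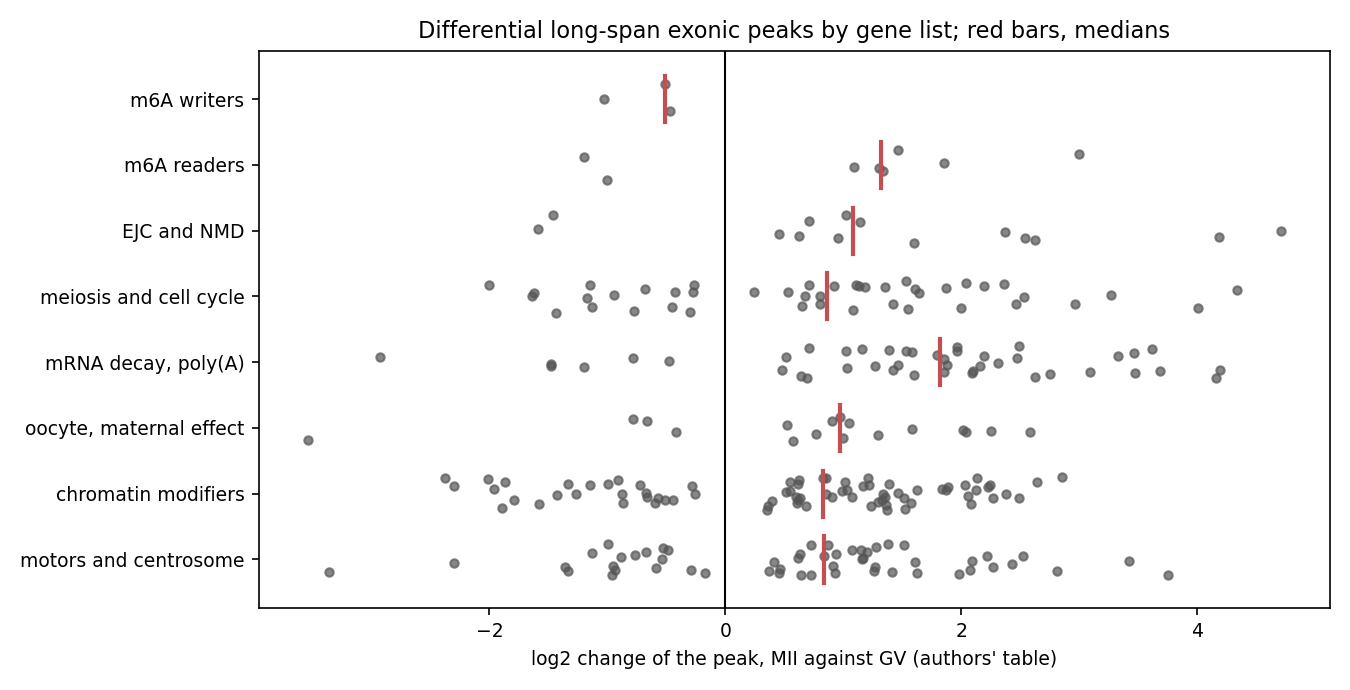
Log2 change of listed differential long-span peaks, MII against GV, in the authors' deposited table (horizontal axis), for 8 gene lists (rows; EJC, exon junction complex; NMD, nonsense-mediated decay). Each point is 1 peak and the red bar is the median, which is -0.51 for m6A writers and between 0.83 and 1.82 for the other lists.

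Input expression of the genes that carry long-span peaks was lower in MII oocytes more often than it was higher. Of 5641 genes with a long-span peak in either list, 5260 averaged 1 FPKM or more and were tested. Of these, 1288 were higher in MII libraries, or 24.5% beside 32.0% of all 11739 tested genes, and 1989 were lower, or 37.8% beside 28.8% (limma on log2(FPKM + 1), adjusted p under 0.05). In all, 62.3% were called in either direction beside 60.8% of all tested genes, so the share called was near the background while its balance differed. Levels are those of RNA selected by its poly(A) tail, and in bulk libraries fewer cells of a type and less RNA per cell cannot be told apart. Their median log2 difference was -0.09, against 0.01 over all tested genes and 0.14 over the 6479 tested genes without a long-span peak, of which 38.2% were higher and 21.5% lower.

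The balance was most to the lower side for genes with long-span peaks in both lists, where 449 of 2253 were higher and 999 lower. Genes with such a peak in the MII list only had 627 of 2290 higher and 780 lower, and those in the GV list only 212 of 717 higher and 210 lower. Gene size moved with these counts: the median gene span was 44.6 kb for genes with a long-span peak and 9.48 kb for tested genes without one. Among the tested genes with spans above 56.9 kb, 16.5% of genes with a long-span peak were higher and 44.8% lower, against 25.3% and 27.2% of those without. From 20.8 to 56.9 kb the shares were 21.5% higher and 39.4% lower with a peak, against 32.2% and 25.7% without. From 6.58 to 20.8 kb they were 39.6% higher and 24.7% lower with a peak, against 44.8% and 17.7% without. Up to 6.58 kb they were 47.0% higher and 24.2% lower with a peak, against 39.9% and 20.5% without. In all 4 classes of gene span the share of lower genes was larger with a long-span peak than without, while more genes with a peak were higher than lower below 20.8 kb. The genes with a peak also had the higher median FPKM in each class, from 12.8 to 19.8, against 5.41 to 8.14 without. The part of gene size and of level in these counts was not tested.

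The largest input differences among these genes ran in both directions. EYA2, a coactivator with phosphatase activity, had 21.9, 21.0 and 18.7 FPKM in MII libraries and was listed at 0 in all GV libraries, and SMIM26 had 25.4, 15.1 and 18.2 FPKM in MII libraries and was likewise listed at 0 in all GV libraries. Both had 1 long-span peak in the MII list and none in the GV list. DRC7, a component of the dynein regulatory complex, was at 227.6, 230.8 and 236.6 FPKM in MII libraries, against 54.2, 55.5 and 55.2 FPKM in GV libraries, with a log2 difference of 2.06 (SE 0.04, adjusted p = 1.33e-07 in limma), and had 1 long-span peak in each list. PRKCQ, protein kinase C theta, averaged 30.7 ± 1.15 FPKM in MII libraries and 6.78 ± 0.678 FPKM in GV libraries (SD, n = 3 each; adjusted p = 2.5e-06 in limma). Libraries of the 2 stages did not overlap for any of these 4 genes.

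At the lower end, the histone gene H2AC20 was at 101.4, 107.9 and 102.9 FPKM in MII libraries, against 307.1, 273.8 and 295.0 FPKM in GV libraries (log2 difference -1.48, SE 0.05, adjusted p = 1.32e-06 in limma). The linker histone gene H1-6 averaged 67.3 ± 3.58 FPKM in MII libraries and 166.1 ± 10.3 FPKM in GV libraries (SD, n = 3 each; adjusted p = 4.39e-06 in limma). FBXO43, whose protein holds the metaphase arrest of the MII oocyte by inhibiting the anaphase-promoting complex, was at 19.2, 19.1 and 17.1 FPKM in MII libraries, against 41.9, 47.2 and 50.8 FPKM in GV libraries (-1.29, SE 0.08, adjusted p = 1.75e-05 in limma), with 2 long-span peaks in the MII list and none in the GV list. Again no MII library reached a GV library for these 3 genes. Of the 10 genes with the most negative differences, ATAD2 alone had a long-span peak in the GV list, and all 10 had one in the MII list. Of the 10 with the largest positive ones, 8 had one in the MII list and 4 in the GV list.

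**Figure D5:**
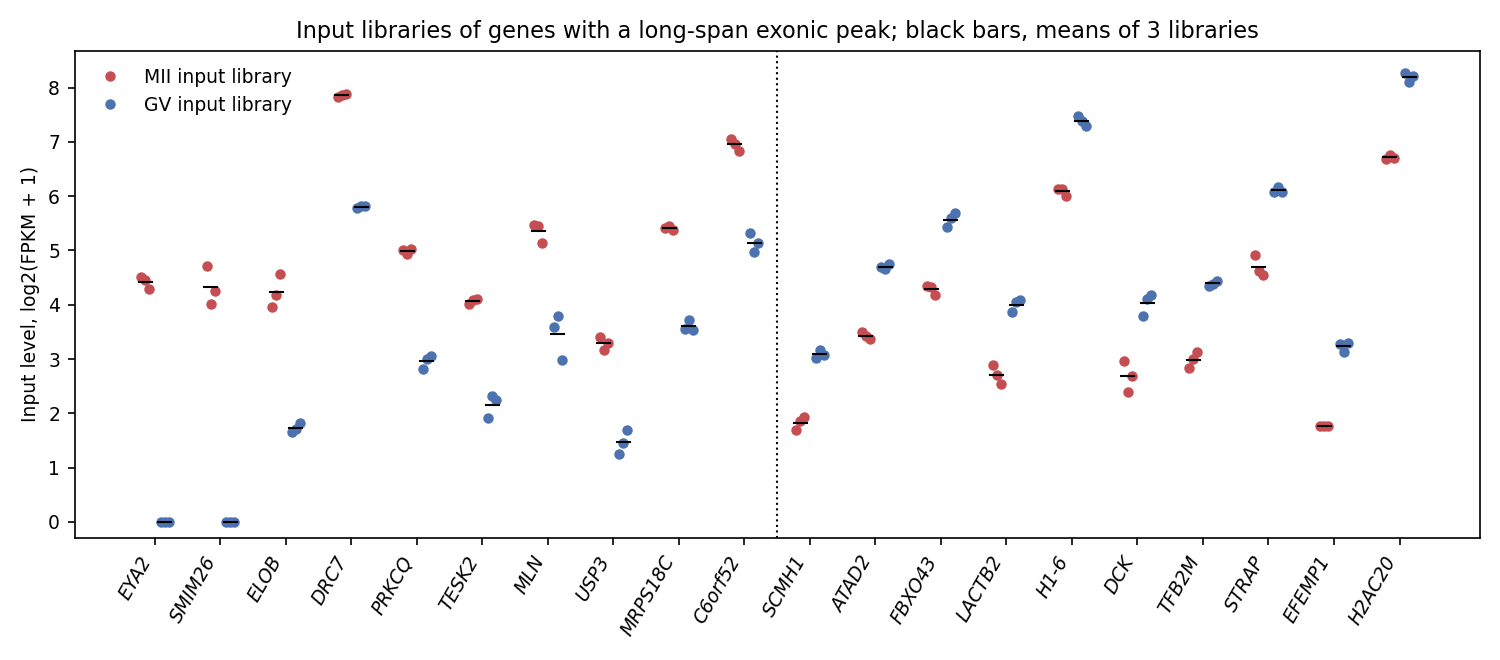
Input level, log2(FPKM + 1), of the 10 largest (left of the dotted line) and 10 smallest (right of it) MII minus GV differences among genes with a long-span exonic peak. Points are libraries, MII left of GV for each gene, and black bars are means of 3 libraries; libraries of the stages do not overlap for any of the 20 genes, and EYA2 and SMIM26 are listed at 0 in all GV libraries.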

How the data were processed

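Poly(A) RNA of MII and GV oocytes was immunoprecipitated with an m6A antibody and sequenced beside input in libraries that keep the strand, per the labels' protocols. The submitters' processing notes list HOMER 4.10, edgeR 4.1, StringTie 2.1.2, HISAT2 2.0.4 and fastp 0.19.4 without roles. The sources used here do not give the peak caller's settings, the build, or how 3 libraries made 1 list. The authors deposited FPKM for input libraries, and log2 enrichments or log2 changes with p-values and adjusted p-values for peaks.

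Genes averaging 1 FPKM or more in input were tested on the log2(FPKM + 1) scale, which understates changes of low genes, in a 2-sided limma 3.58.1 fit (R 4.3.3) with a variance trend and Benjamini-Hochberg adjustment at 0.05. The fit was tested on simulated data. Peaks overlapped when their genomic spans shared at least 1 bp on one strand. Exon blocks were planned for this but are not in the tables used here, so genomic spans replaced them throughout. Shares have 95% Clopper-Pearson intervals, computed with SciPy 1.17.1. Peak starts count from 0 in the deposited files and are printed from 1.

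The members and gene lists were chosen with earlier results of these data known. Text names come from a written rule: the 10 most enriched and 5 longest peaks a stage, the 10 highest and 10 lowest differential peaks, the 5 genes with most peaks, threshold neighbours, list members, and the 10 largest and 10 smallest input differences at a mean of at least 5 FPKM. The text gives a part of these, 1 peak among the lowest is not reported here, and CCNB1, FHIT and the cumulus markers FSHR, INHA, HSD3B1, PTX3 and STAR were singled out after their values were seen. Enriched, longest and differential peaks were ranked among those with an FDR under 0.05, a symbol and a mean input of at least 1 FPKM. Sequences were not used here. Replicate numbers in the labels did not pair the samples.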

Additional observations from a re-analysis of the deposited data

How the results depend on the processing

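Removing libraries, changing the pseudocount, filter, scaling or variance model left the counts of input genes within 1.5 times of 1288 higher and 1989 lower: 1125 to 1162 higher and 1721 to 1825 lower with 1 library left out, and 1198 and 1851 with a replicate block. Replicate numbers did not pair the samples, since same-numbered libraries had correlations of deviations of -0.055, -0.060 and 0.013. A span above 5000 bp left 657 higher and 1403 lower input genes of 3268 tested.

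Median enrichment was 1.76 in MII oocytes above 2000 bp, and 1.88 in MII and 2.70 in GV oocytes above 5000 bp. Differential peaks above 5000 bp were 1331 higher and 460 lower. An FDR under 0.05 with an absolute log2 change of at least 1 left 437 lower peaks and 80.8% higher. Peaks that overlap both stage lists, a setting chosen after seeing the data, gave 1016 higher, or 57.3%. Overlap with any peak of the other stage was 20.6% of MII and 37.1% of GV long-span peaks at a reciprocal 50%, 50.6% of MII and 70.1% of GV with equal numbers of peaks from each list, and 82.6% of GV at an FDR under 0.05. Why these values moved was not tested.

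Of 37 named input differences, 33 kept their side of the threshold under every alternative. FHIT lost its call under 6 alternatives, PLK1 under 7 and YTHDF2 under 3 that left out 1 library, and ZEB1 gained one under median scaling and quantile normalization (adjusted p = 0.0276 in limma). No called direction was reversed. Summed exon block length and overlap of exon blocks were not run, because the tables used here have no blocks. Peaks have no replicates, so enrichments were not set against library error.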
